A study of Homo sapiens with 3 samples.

Results

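Aminoacyl-tRNA synthetases, the enzymes that load each amino acid onto its transfer RNA, were followed as transcripts in Jurkat cells, a human T-cell leukaemia line, under inhibition of lactate dehydrogenase. Members were the rows of the expression table named by 1 capital letter and ARS or ARS2, with EPRS, FARSA and FARSB, which gave 37 of 17329 genes. Names without 2 form the cytosolic class of 20 genes, and names ending in 2 form the mitochondrial class of 17 genes. KARS and GARS encode both the cytosolic and the mitochondrial enzyme of their amino acid and were counted as cytosolic. All 20 cytosolic genes and 16 of the 17 mitochondrial genes had a mean of at least 50 normalized counts over the libraries, the floor used for ratios, and SARS2 lay under it.

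The oxamate+lactate library came from cells kept for 48 hours with 50 mM sodium oxamate, which blocks lactate dehydrogenase, together with 10 mM L-sodium lactate. The oxamate library came from cells with 50 mM sodium oxamate alone, and the control library from cells in standard medium, both also at 48 hours. All cells were Jurkat in RPMI medium with serum, and an ERCC spike-in mix was added to RNA from equal cell numbers, per the labels' protocols. The series relates histone lactylation to transcription, which these RNA values do not measure.

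Each amino acid has its own synthetase, and most eukaryotes keep separate enzymes for the cytosol, where nuclear messages are translated, and for mitochondria, where the few messages of the mitochondrial genome are translated. Both sets are encoded in the nucleus. When amino acids run short, uncharged transfer RNA activates the kinase GCN2, translation slows, and the transcription factor ATF4 is made. ATF4 raises genes of amino acid synthesis and import together with many cytosolic synthetases, through a composite element bound by ATF4 with C/EBP proteins.

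There was 1 library for each condition, so differences carry neither a replicate check nor a test. "Higher" and "lower" refer to libraries, by the log2 ratio of normalized counts after adding 1 to each. In bulk RNA, a change in the make-up of the culture and a change within cells cannot be told apart. Values summed over genes to 8171633 in oxamate+lactate, 8821115 in oxamate and 8220199 in control. Over the 12292 genes at or above the floor, the median log2 ratio was 0.08 for oxamate against control, -0.09 for oxamate+lactate against oxamate and -0.01 for oxamate+lactate against control. For 18 abundant ERCC RNAs (mean of 100 or more), log2 ratios had SDs of 0.13, 0.11 and 0.19 in these comparisons, which measure handling after extraction only. Scaling the libraries to equal sums moved the gene medians of the first 2 comparisons to -0.02 and 0.02. Of 8 T-lineage markers, 7 were over the floor, with CD3E at 4011 normalized counts in oxamate+lactate, 4128 in oxamate and 4488 in control. Of these 7 markers, 5 were higher and 2, CD3E among them, lower in oxamate than in control, 0 passed 1.5-fold and the median log2 ratio was 0.32, with ZAP70 highest at 0.51. CD28, under the floor, had 20 in oxamate+lactate, 66 in oxamate and 3 in control, and the part of these differences in the results below was not tested.

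Most cytosolic synthetase transcripts were lower in oxamate than in control, and mitochondrial ones as a class were not. In the cytosolic class, 8 of 20 genes were at least 1.5-fold lower and 0 were at least 1.5-fold higher. Of all genes, 3.98% were lower and 7.48% higher by that factor. The class median was -0.40, against 0.08 for all genes, and 16 of the 20 lay below that gene median, as 50% of genes do.

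Seryl-tRNA synthetase was the lowest member. SARS had 1715 normalized counts in oxamate+lactate, 1279 in oxamate and 2857 in control. It was 2.23-fold lower in oxamate than in control (log2 ratio -1.16), and 0.472% of genes had a lower ratio. AARS, the alanine enzyme, had 2585 in oxamate+lactate, 1971 in oxamate and 3972 in control, and its log2 ratio of -1.01 was the other one past 2-fold, a size reached downward by 0.879% of genes. In both genes the oxamate library held the lowest value and oxamate+lactate lay between it and control.

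IARS, the isoleucine enzyme gene, had 3599 normalized counts in oxamate+lactate, 2974 in oxamate and 5825 in control. Its ratio of oxamate against control was -0.97, just short of 2-fold. CARS, for cysteine, had 988 in oxamate+lactate, 831 in oxamate and 1518 in control, a log2 ratio of -0.87 for oxamate against control. Both were lowest in oxamate and highest in control.

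YARS, the tyrosine enzyme, had 2288 normalized counts in oxamate+lactate, 2033 in oxamate and 3529 in control (log2 ratio of oxamate against control -0.80). For the dual glycine enzyme, GARS had 2682 in oxamate+lactate, 2197 in oxamate and 3664 in control (-0.74). WARS, the tryptophan enzyme, which interferon also induces, had 924 in oxamate+lactate, 809 in oxamate and 1346 in control (-0.73). All 3 were lowest in oxamate and highest in control. MARS, the methionine enzyme, had 2940 in oxamate+lactate, 2586 in oxamate and 4003 in control (-0.63), the smallest of the 8 ratios past 1.5-fold. MARS shares 519 bases of exon with ARHGAP9 and 355 with DDIT3, both on the opposite strand, in a library made without strand marking. ARHGAP9 had 214 in oxamate+lactate, 212 in oxamate and 264 in control. DDIT3, which encodes the stress factor CHOP, had 144 in oxamate+lactate, 136 in oxamate and 226 in control. CARS, GARS, WARS and YARS also share exon bases with genes on the opposite strand. Of their neighbours with values, CARS-AS1 (beside CARS) was at -1.10 in oxamate against control. WDR25 (beside WARS) was at 0.43 and S100PBP (beside YARS) at -0.05. The part of these overlaps was not tested.

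**Figure D1:**
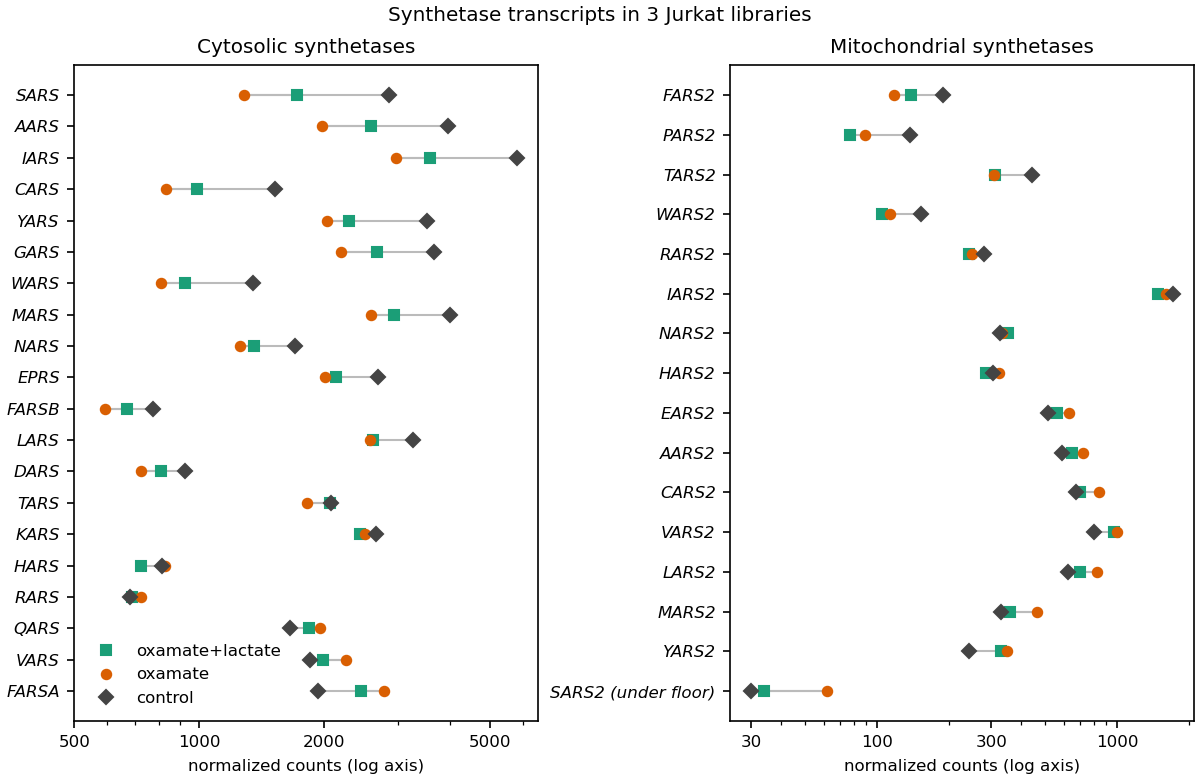
Normalized counts (log axis) of the synthetase genes reported by name in the oxamate+lactate, oxamate and control libraries, 1 point per library, with genes ordered by the log2 ratio of oxamate against control. In the upper cytosolic rows, from SARS to MARS, control is highest and oxamate lowest, and in the lower rows, as in FARSA, the order is turned.

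Another 5 cytosolic genes lay between -0.44 and -0.35 in oxamate against control, namely NARS (asparagine, -0.44), EPRS (the fused glutamate and proline enzyme, -0.42), FARSB (-0.38), LARS (leucine, -0.35) and DARS (aspartate, -0.35). TARS, for threonine, was at -0.19. KARS, the dual lysine enzyme, had 2432 normalized counts in oxamate+lactate, 2509 in oxamate and 2666 in control, a log2 ratio of -0.09. The dual enzymes thus differed in this comparison, with GARS past 1.5-fold and KARS near its control value.

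At the other end of the class, HARS (histidine) was at 0.02, RARS (arginine) at 0.08, QARS (glutamine) at 0.24 and VARS (valine) at 0.28 in oxamate against control. FARSA had the highest ratio of the class, with 2444 normalized counts in oxamate+lactate, 2781 in oxamate and 1924 in control (0.53, or 1.45-fold). FARSA and FARSB encode the alpha and beta subunits of a single enzyme, phenylalanyl-tRNA synthetase. The beta subunit gene FARSB had 670 in oxamate+lactate, 591 in oxamate and 772 in control. The subunit genes thus had opposite orders, with FARSA highest and FARSB lowest in oxamate.

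Cytosolic synthetases differ in how they are linked to the amino acid response. From general knowledge, 13 were listed as described ATF4 targets (AARS, CARS, EPRS, GARS, IARS, LARS, MARS, NARS, SARS, TARS, VARS, WARS and YARS), and the other 7 were DARS, FARSA, FARSB, HARS, KARS, QARS and RARS. In oxamate against control, 8 of the 13 described targets and 0 of the other 7 were at least 1.5-fold lower, against 3.98% of all genes, and the medians were -0.73 and 0.02. For so few genes, 0 of 7 is near that share. VARS was the described target that went the other way, and the next highest, TARS, was at -0.19. The list was drawn up with earlier results of these data known, so it is no independent evidence of a direction.

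A second division is by assembly. EPRS, IARS, LARS, MARS, QARS, RARS, KARS and DARS sit in the multisynthetase complex, a cytosolic particle that holds several synthetases together, and the other 12 are outside it. The median log2 ratio of oxamate against control was -0.35 for the 8 genes of the complex and -0.59 for the 12 others. In these groups, 2 and 6 genes were at least 1.5-fold lower, against 3.98% of all genes. Within the described ATF4 targets the medians were -0.53 for 4 genes of the complex and -0.74 for 9 others. Among cytosolic genes not listed as targets they were -0.002 for 4 genes of the complex and 0.02 for 3 others. By the fold of the catalytic domain, cytosolic class I with EPRS counted there had a median of -0.53 over 10 genes. Cytosolic class II had one of -0.37 over 10 genes. Among mitochondrial genes over the floor, 6 of 9 in class I and 2 of 7 in class II lay above the gene median, as 50% of genes do.

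**Figure D2:**
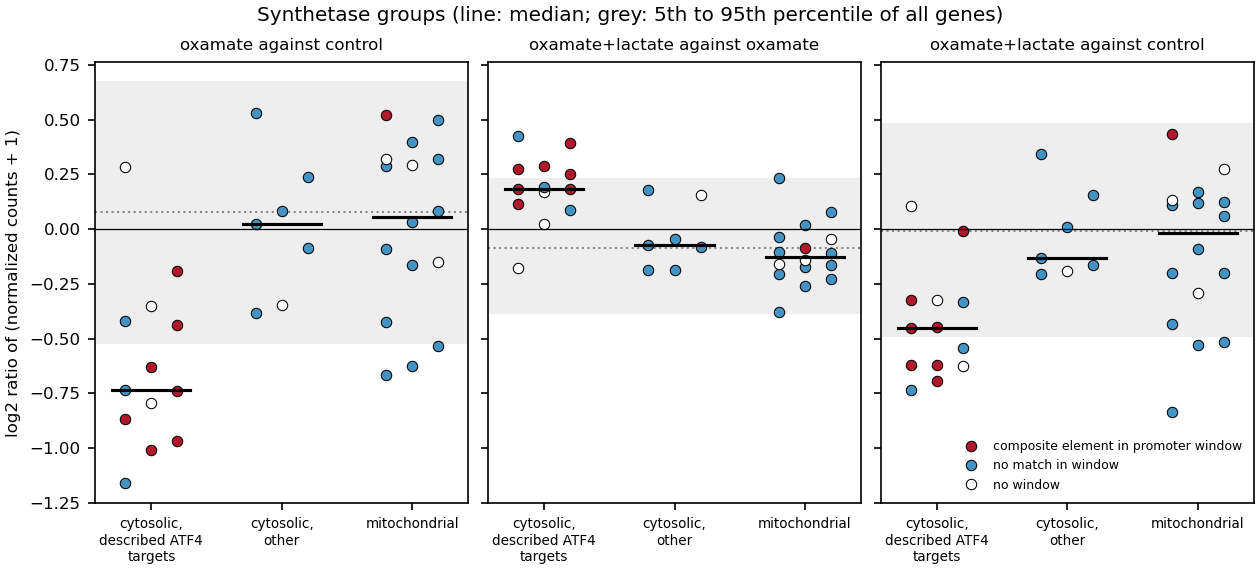
Log2 ratios of the synthetase genes over the floor in the 3 comparisons, by group, with the median as a line and the 5th to 95th percentile of all genes in grey, and red points for genes with the ATF4 and C/EBP composite element in their promoter window. For oxamate against control the described targets centre at -0.73, the other cytosolic genes at 0.02 and the mitochondrial genes at 0.06.

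The promoters of these members were read from RefSeq windows (GRCh38.p14, 250 bases before to 50 after the start site), which matched 30 of the 37 genes. The other 7 had none. Windows were searched on both strands for TGATGNAA, the core of the composite element. It was present in 7 of 16 cytosolic windows (43.8%) and 1 of 14 mitochondrial windows (7.14%), against 4.46% of 27305 genes with a window and 2.58% of the 8427 of these that were over the floor. A match is a description of letters and not a binding site. In 6 of the 7 cytosolic genes the match had C at the open base, and TGATGCAA on either strand was found in 1.08% of all genes with a window. The stretches that carry the match are shown because most matching cytosolic promoters hold the same 8 letters close to the start site. The match is in capitals and each stretch reads 5′ to 3′ along the gene.
AARS, chr16:70289660-70289719 (- strand): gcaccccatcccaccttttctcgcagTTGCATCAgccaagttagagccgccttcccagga
CARS, chr11:3057392-3057451 (- strand): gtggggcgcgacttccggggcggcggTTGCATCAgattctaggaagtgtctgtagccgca
GARS, chr7:30594819-30594878 (+ strand): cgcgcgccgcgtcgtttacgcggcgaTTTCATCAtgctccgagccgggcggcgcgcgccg
MARS, chr12:57488038-57488097 (+ strand): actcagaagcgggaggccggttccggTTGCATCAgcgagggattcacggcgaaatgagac
NARS, chr18:57621789-57621848 (- strand): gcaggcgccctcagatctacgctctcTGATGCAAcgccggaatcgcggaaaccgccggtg
TARS, chr5:33440941-33441000 (+ strand): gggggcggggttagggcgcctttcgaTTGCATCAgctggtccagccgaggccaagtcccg
YARS2, chr12:32756061-32756120 (- strand): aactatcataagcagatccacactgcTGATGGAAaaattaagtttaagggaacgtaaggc
The match began 187 bases before the start site in AARS, 33 before it in GARS, 4 before it in MARS and 2 before it in CARS. In TARS it began 2 bases and in NARS 14 bases after the start site. In AARS, CARS, MARS, TARS and GARS the element reads on the strand opposite to the gene, and in NARS and the mitochondrial gene YARS2 on the strand of the gene.

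Whole windows are shown for the seventh cytosolic gene with a match, IARS, for SARS, the member with the lowest ratio, and for FARSA, the cytosolic member with the highest. Capitals mark TGATGNAA in either orientation and the E-box CACGTG, a site of the MYC factor family.
IARS, chr9:92293648-92293947 (- strand): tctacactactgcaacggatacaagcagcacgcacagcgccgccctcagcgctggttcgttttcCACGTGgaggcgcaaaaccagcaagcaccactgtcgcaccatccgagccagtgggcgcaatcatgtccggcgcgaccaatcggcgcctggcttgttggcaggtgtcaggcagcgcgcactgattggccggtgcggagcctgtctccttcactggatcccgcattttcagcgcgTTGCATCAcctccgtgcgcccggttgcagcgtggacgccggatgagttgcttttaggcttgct
SARS, chr1:109213643-109213942 (+ strand): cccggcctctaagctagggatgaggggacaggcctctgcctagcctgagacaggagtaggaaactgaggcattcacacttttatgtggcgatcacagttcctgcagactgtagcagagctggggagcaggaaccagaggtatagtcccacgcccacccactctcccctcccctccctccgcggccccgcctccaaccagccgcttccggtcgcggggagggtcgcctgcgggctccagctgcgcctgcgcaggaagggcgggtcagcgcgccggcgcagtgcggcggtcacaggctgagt
FARSA, chr19:12933662-12933961 (- strand): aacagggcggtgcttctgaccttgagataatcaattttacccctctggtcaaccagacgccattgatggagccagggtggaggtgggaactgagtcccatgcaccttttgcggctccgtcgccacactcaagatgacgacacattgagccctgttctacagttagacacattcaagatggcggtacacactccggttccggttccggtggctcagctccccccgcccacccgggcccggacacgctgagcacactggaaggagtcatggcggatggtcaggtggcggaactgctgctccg
IARS held the composite element 13 bases before its start site and an E-box 186 bases before it. Neither the SARS nor the FARSA window held a match, which says only that these letters are not in these 300 bases. The 7 cytosolic genes with a match had log2 ratios of oxamate against control from -1.01 (AARS) to -0.19 (TARS), with a median of -0.74 and 5 at least 1.5-fold lower. The 9 cytosolic genes whose window had no match ran from -1.16 (SARS) to 0.53 (FARSA), with a median of -0.09. Of these 9, 2 were at least 1.5-fold lower, against 3.98% of all genes. The ranges overlapped, and YARS2, the mitochondrial gene with a match, was higher in oxamate than in control (0.52). All 7 cytosolic genes with a match are on the list of described ATF4 targets. Those without a match include SARS, WARS (-0.73) and EPRS (-0.42) from that list, and the rest are not on it. The 2 divisions therefore overlap, and the part of the match was not tested.

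Mitochondrial synthetases went both ways in oxamate against control. Of 16 genes over the floor, 2 passed 1.5-fold downward and 0 upward, against 3.98% and 7.48% of all genes. The ratio lay above the gene median in 8 of the 16 and below it in 8. The class median was 0.06, and it lay between -0.04 and 0.06 under the other scalings of the libraries. It depended more on which genes were kept, at 0.29 with a floor of 200 and -0.13 without genes that have exon overlap. FARS2, the phenylalanine enzyme of mitochondria, had 139 normalized counts in oxamate+lactate, 118 in oxamate and 188 in control (-0.67). PARS2, for proline, had 77 in oxamate+lactate, 89 in oxamate and 138 in control (-0.63). Both were lower in each treated library than in control. They were followed by TARS2 (threonine, -0.54) and WARS2 (tryptophan, -0.42), while RARS2 (arginine), IARS2 (isoleucine), NARS2 (asparagine) and HARS2 (histidine) lay between -0.16 and 0.08.

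The 7 remaining mitochondrial genes over the floor were higher in oxamate, by 0.29 to 0.52. YARS2, for tyrosine, had 329 normalized counts in oxamate+lactate, 349 in oxamate and 243 in control (0.52). MARS2, for methionine, had 358 in oxamate+lactate, 466 in oxamate and 330 in control (0.50). LARS2 (leucine) was at 0.40, VARS2 (valine) and CARS2 (cysteine) at 0.32, and AARS2 (alanine) and EARS2 (glutamate) at 0.29. These genes held their highest value in oxamate. SARS2, the serine enzyme under the floor, had 34 in oxamate+lactate, 62 in oxamate and 30 in control, and 46.2% of its exon bases are shared with another coding gene in the annotation. VARS2 shares 22.0% of its exon bases with GTF2H4, and HARS2 shares 11.7% with HARS, its head-to-head neighbour and paralog, so reads of these genes are uncertain.

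Comparing the 2 enzymes of the same amino acid removes any factor shared by a whole library. Of 16 amino acids with a gene over the floor in each class, the cytosolic gene had the lower ratio of oxamate against control in 12 and the higher in 4, with a median difference, cytosolic minus mitochondrial, of -0.39. The widest gap was that of tyrosine, where YARS was at -0.80 and YARS2 at 0.52, a difference of -1.32. For alanine, AARS2 had 648 normalized counts in oxamate+lactate, 724 in oxamate and 591 in control, and the difference was -1.30. CARS2 had 700 in oxamate+lactate, 838 in oxamate and 672 in control, with a difference of -1.19 for cysteine. In each of these the cytosolic gene was lowest and the mitochondrial gene highest in oxamate. The difference was -1.13 for methionine and -0.88 for isoleucine, where IARS2 had 1483 in oxamate+lactate, 1602 in oxamate and 1706 in control. In the 4 exceptions the difference was 0.74 for phenylalanine, 0.34 for threonine, 0.25 for arginine and 0.21 for proline. The phenylalanine value averages FARSA (0.53) and FARSB (-0.38), which had opposite signs, against FARS2. Proline pairs EPRS with PARS2, and glutamate pairs it with EARS2, so EPRS enters 2 of the pairs.

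The gap depended on which pairs were counted. Exons of 18 of the 36 genes over the floor overlap another annotated gene. They share at most 7.60% of their exon bases with any 1 other gene, except in HARS2 and VARS2. Leaving all of these genes out kept 5 amino acids with a median difference of 0.25. The 5 were isoleucine and all the exceptions named above, with phenylalanine by FARSB alone, so this median rests on which pairs stayed. Genes sharing at least 10% of their exon bases with a single gene were HARS2, SARS2 and VARS2. Without them the median difference was -0.59 over 14 amino acids. GC content moved with the ratios as well: across 10736 genes, which share the libraries and are not replicates, the Spearman correlation of GC content with oxamate against control was 0.31. Median GC was 47.7% for the cytosolic class, 50.8% for the mitochondrial class and 48.2% for all genes. That correlation was -0.03 within the cytosolic class of 20 genes and 0.19 within the 16 mitochondrial genes over the floor, and with each ratio taken relative to genes of similar GC content the median difference was -0.48.

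**Figure D3:**
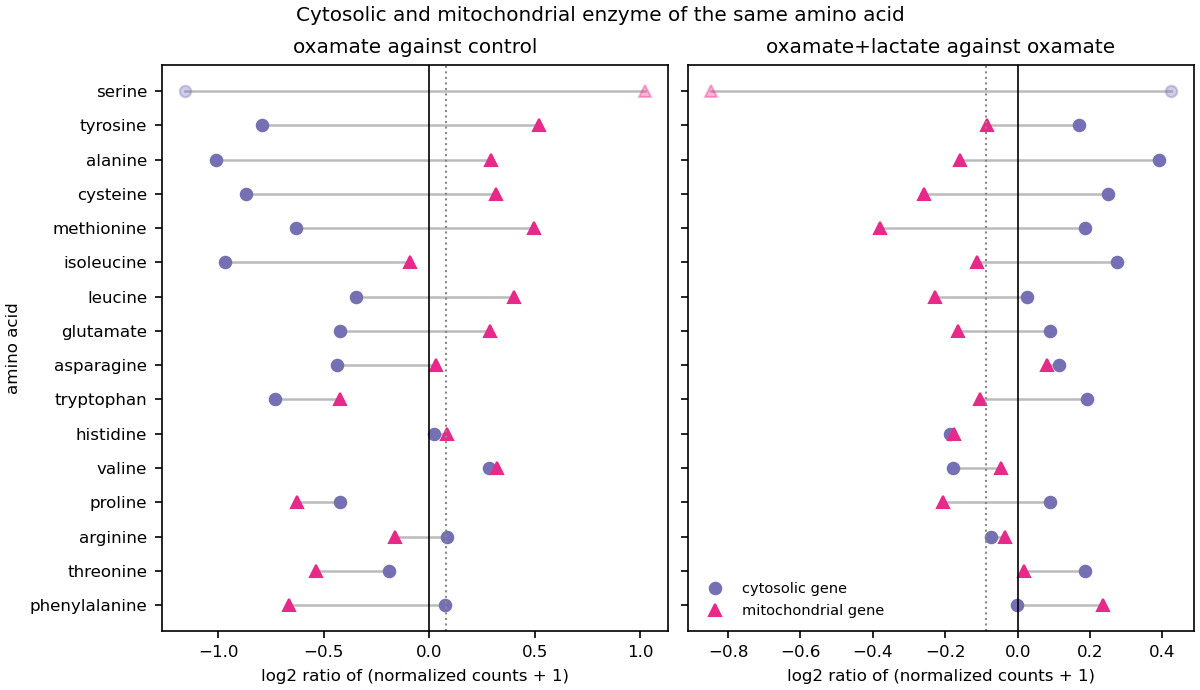
Log2 ratio of the cytosolic gene (circles) and the mitochondrial gene (triangles) of the amino acids shown, for oxamate against control and for oxamate+lactate against oxamate, with FARSA and FARSB averaged and the serine pair, whose SARS2 is under the floor, in pale colours. In the left panel the circle lies left of the triangle from serine down to valine, and right of it for proline, arginine, threonine and phenylalanine.

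With lactate added to oxamate, 14 of the 20 cytosolic genes had a higher value than with oxamate alone and 6 a lower one, by less than 1.5-fold. Of the 20 genes, 0 were at least 1.5-fold higher or lower, against 0.252% and 0.903% of all genes, but 17 had a ratio above that of the median gene, as 50% of genes do. The class median was 0.16, against -0.09 for all genes. SARS was the highest at 0.42, with 99.0% of genes at a lower ratio, followed by AARS at 0.39, GARS at 0.29, IARS at 0.28 and CARS at 0.25. The lowest were HARS and FARSA, both at -0.19, and VARS at -0.18. The oxamate library stands in this comparison and in oxamate against control, so opposite ratios in the 2 are partly given by that shared library. Described ATF4 targets had a median of 0.19, with 12 of 13 above the gene median, and the other 7 cytosolic genes had one of -0.07, with 5 of 7 above the gene median.

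Mitochondrial synthetases followed the bulk of genes in oxamate+lactate against oxamate. Their median was -0.13, against -0.09 for all genes, with 6 of 16 above the gene median. MARS2 had the lowest ratio, -0.38, and FARS2 the highest, 0.23. The cytosolic gene had the higher ratio in 12 of 16 amino acids, and the median difference, cytosolic minus mitochondrial, was 0.25. It was widest for methionine (0.56) and alanine (0.55).

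**Figure D4:**
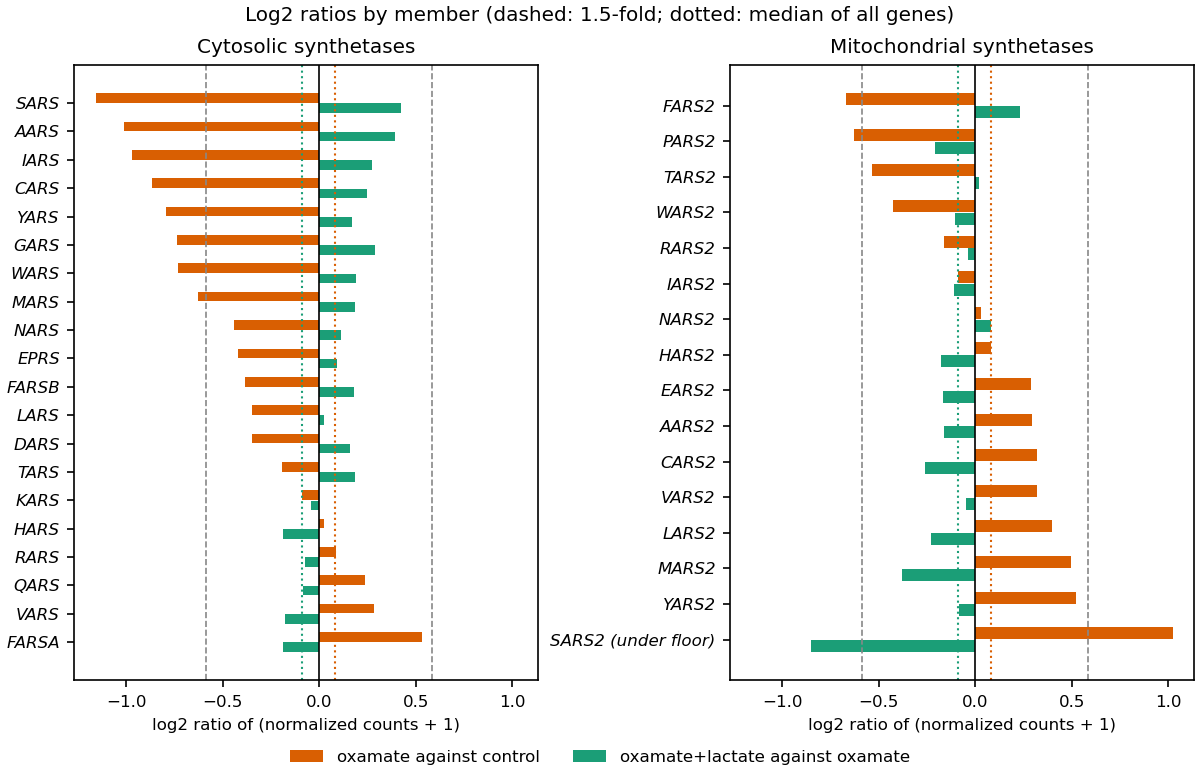
Log2 ratios of oxamate against control and of oxamate+lactate against oxamate for the synthetase genes reported by name, with 1.5-fold as dashed lines and the median of all genes in each comparison as dotted lines. Among genes over the floor the longest bars are those of SARS at -1.16 and AARS at -1.01 for oxamate against control, SARS2, under the floor, is at 1.02, and for oxamate+lactate against oxamate the synthetases over the floor lie between MARS2 at -0.38 and SARS at 0.42.

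Most cytosolic synthetases were also lower in oxamate+lactate than in control. In oxamate+lactate against control, 5 of 20 cytosolic genes were at least 1.5-fold lower and 0 were higher, against 3.07% and 2.99% of all genes. At 2-fold, 0 of 20 were lower, against 0.342% of genes. The class median was -0.33 and that of all genes -0.01. The 5 were SARS (-0.74), IARS (-0.69), YARS, AARS and CARS (each -0.62). TARS, at -0.01, and RARS, at 0.01, had nearly the control value, and FARSA was the highest at 0.34. When the libraries were scaled to equal ERCC sums, 2 genes rather than 5 passed 1.5-fold. In the mitochondrial class the median was -0.02, and PARS2 was the single gene at least 1.5-fold lower (-0.83). YARS2 was the highest at 0.44. The cytosolic gene had the lower ratio in 11 of 16 amino acids, with a median difference of -0.30. That difference was 0.23 over the 5 amino acids, named above, that stayed when all genes with exon overlap were left out.

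In level per kb of the longest transcript, the cytosolic class was above the mitochondrial class in every library. The median was 514 normalized counts per kb for cytosolic and 134 for mitochondrial genes in oxamate+lactate, 530 and 137 in oxamate, and 566 and 129 in control. The cytosolic range in control ran from 229 (FARSB) to 1518 (SARS), and the mitochondrial range from 14.6 (SARS2) to 479 (IARS2), so the classes overlapped. Summed over its members, the cytosolic class held 0.459% of all normalized counts in oxamate+lactate, 0.393% in oxamate and 0.581% in control. The mitochondrial class held 0.0935% in oxamate+lactate, 0.0953% in oxamate and 0.0945% in control. For tyrosine the ratio of cytosolic to mitochondrial level per kb was 4.56 in oxamate+lactate, 3.82 in oxamate and 9.52 in control, and for alanine it was 4.42 in oxamate+lactate, 3.02 in oxamate and 7.45 in control.

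Of 14 listed partners of the synthetases over the floor, 1 was at least 1.5-fold lower (EEF1E1) and 0 higher in oxamate than in control, close to the 3.98% and 7.48% of all genes. The complex is built on the scaffold proteins encoded by AIMP1, AIMP2 and EEF1E1. EEF1E1 had 91 normalized counts in oxamate+lactate, 65 in oxamate and 108 in control (-0.72 for oxamate against control), while AIMP1 was at -0.17 and AIMP2 at -0.18. XPOT, the exportin of transfer RNA and itself a described ATF4 target, had 2820 in oxamate+lactate, 2375 in oxamate and 3419 in control (-0.53). It kept the order of libraries seen in SARS and AARS. TRNT1, which adds the CCA end to transfer RNA, was at 0.08. Mitochondria make glutaminyl-tRNA without a glutaminyl-tRNA synthetase, by an amidotransferase whose subunits QRSL1, PET112 and GATC were at 0.32, 0.07 and 0.13. Editing factors DTD1 and DTD2 were at -0.21 and -0.16, the threonine synthetase-like gene TARSL2 at -0.15, and the selenocysteine pathway genes SEPSECS and PSTK at -0.12 and 0.19.

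Most listed ATF4 genes outside the synthetases were lower in oxamate than in control, as most cytosolic synthetases were, which earlier results of these data had already shown. Of 25 over the floor, 14 were at least 1.5-fold lower and 0 higher in oxamate than in control, against 3.98% and 7.48% of all genes. Their median was -0.61, and that of the 13 synthetases described as targets -0.73. The 3 above 0 were SLC38A2 (0.31), ALDH18A1 (0.16) and CHAC1 (0.13). ASNS, asparagine synthetase, had 495 normalized counts in oxamate+lactate, 312 in oxamate and 1327 in control (-2.09), a wider ratio than that of any synthetase. The transcription factor gene ATF5 was at -2.11, TRIB3, a pseudokinase gene, at -1.92, PCK2 at -1.77, and the serine and one-carbon genes PSAT1, PHGDH, MTHFD2 and SHMT2 at -1.32, -1.09, -1.05 and -0.84. The others past 1.5-fold, besides DDIT3, were STC2 (-0.91), ATF3 (-0.72), CEBPB (-0.66), SLC7A11 (-0.61) and SLC3A2 (-0.60). ATF4 itself had 3586 in oxamate+lactate, 3570 in oxamate and 4690 in control (-0.39). For oxamate+lactate against oxamate the 25 genes had a median of 0.30, with 4 at least 1.5-fold higher (TRIB3, ASNS, STC2 and PCK2), against 0.252% of all genes.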

How the data were processed

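The authors deposited 1 table of normalized counts, used here as a score because all values are whole numbers that were normalized by a method not given in the sources used here. Per the submitters' processing notes, which give neither role nor order, FastQC 0.11.9, STAR 2.7.1a, HTSeq 0.11.2 and hg19 were used. The depth in reads is unknown, and no count model was fitted. The 36 ERCC rows were kept out of the 17329 genes.

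Samples were grouped by title, with 1 library in each of 3 conditions. Log2 ratios used a pseudocount of 1, which makes ratios of low genes slightly too small, and genes with a mean of at least 50 over the libraries. Members past 1.5-fold were counted beside all genes, with no test. Members and lists were chosen with earlier results of these data known. The rule names all members, of which 1 counted in the class values is not reported here, with full values for those past 1.5-fold in any comparison, KARS, GARS and the 5 widest amino acid pairs; of other lists, members past 1.5-fold or of lists under 7 genes may be named. FARSA, FARSB, XPOT, TARS and RARS were given further values after their values were seen. ALDH18A1, ARHGAP9, ATF4, CARS-AS1, CD28, CD3E, CHAC1, MTIF2, S100PBP, SLC38A2, TUFM, WDR25 and ZAP70 were named after their values were seen.

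Lengths, GC content and exon overlaps came from GENCODE 29 (GRCh38), another build than hg19, so gene coordinates are not given. GC content was found for 87.3% of genes over the floor. Promoters are RefSeq GRCh38.p14 windows, matched by symbol or synonym. Alternatives were pseudocount 10, no floor and a floor of 200, 3 scalings, a 2-fold threshold, means, and leaving out dual, overlapping or EPRS pairs. The GC adjustment and the 10% overlap limit were chosen after seeing the data. Ratios were computed in Python 3.11.15 with pandas 2.3.3 and numpy 2.4.6, and the code was tested on simulated data.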

Additional observations from a re-analysis of the deposited data

How the results depend on the processing

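No paired analysis was possible because each condition has 1 library. Of 234 values recomputed under alternatives, 216 stayed within 1.5 times the count, or within 1 SD of the ERCC ratios for medians, and 18 did not. Part of the 216 could not change, so their number does not measure robustness. All 20 cytosolic genes pass a floor of 200, and leaving out KARS and GARS touches no mitochondrial gene and no amino acid pair. Scalings of the libraries nearly cancel within amino acid pairs. Mitochondrial medians near 0 changed sign under some scalings, which shift all ratios of a comparison by nearly the same amount. With equal sums, the mitochondrial median of oxamate against control went from 0.06 to -0.04 and the gene median from 0.08 to -0.02. The cause of other changes was not tested, apart from fewer genes under the stricter limits. At a 2-fold threshold, 2 cytosolic and 0 mitochondrial genes were lower in oxamate than in control, and 0 cytosolic and 0 mitochondrial in oxamate+lactate than in control. With a floor of 200, which keeps 13 mitochondrial genes, 0 of these were lower in oxamate or in oxamate+lactate than in control, their median for oxamate against control was 0.29 and the median difference within amino acids -0.71. With pseudocount 10, 1 mitochondrial gene was lower in oxamate than in control. Without a floor SARS2 enters, so 1 was higher in oxamate than in control and 1 lower in oxamate+lactate than in oxamate. Equal ERCC sums left 2 cytosolic genes lower in oxamate+lactate than in control. Without all genes that have exon overlap, 10 cytosolic and 8 mitochondrial genes stayed. Then 3 cytosolic genes were lower in oxamate than in control and 3 in oxamate+lactate than in control. The mitochondrial median for oxamate against control was -0.13. Over the 5 amino acids that stayed, named above, the difference turned to 0.25 for oxamate against control and 0.23 for oxamate+lactate against control. Without the genes that share at least 10% of exon bases with a single gene it was -0.59 for oxamate against control. The cytosolic median of oxamate against control lay between -0.51 and -0.40 under all alternatives run, that of oxamate+lactate against oxamate between 0.11 and 0.27, and that of oxamate+lactate against control between -0.33 and -0.26. With 1 library per condition and no read depth, neither counting error nor the spread between cultures can be given.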

Other observations

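Factors that use charged transfer RNA were compared with the synthetases. Of 10 mitochondrial translation factors, 0 passed 1.5-fold in any comparison. For so few genes, 0 is near the 3.98% of all genes lower and 7.48% higher for oxamate against control. The shares in the other comparisons were smaller. For oxamate against control the median of the factors was -0.16, with 8 of 10 below the median of all genes, as 50% of genes are. The lowest was MTIF2, the initiation factor, with 404 normalized counts in oxamate+lactate, 373 in oxamate and 484 in control (-0.37), and TUFM, the elongation factor that delivers transfer RNA to mitochondrial ribosomes, was at -0.09. In the cytosol, EEF1A1, the elongation factor that delivers charged transfer RNA, had 68223 in oxamate+lactate, 68621 in oxamate and 67517 in control (0.02). EEF1D, of its exchange factor, was at 0.25, EEF1B2 at -0.05 and EEF2, the translocase, at -0.11. With VARS, which binds that exchange factor, 0 of the 5 cytosolic elongation genes passed 1.5-fold in any comparison. For so few genes this is near the 3.98% and 7.48% of all genes for oxamate against control.

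The E-box CACGTG was searched in the same promoter windows. It was present in 3 of 14 mitochondrial windows (CARS2, EARS2 and MARS2) and in 1 of 16 cytosolic windows (IARS), against 13.3% of the 8427 genes over the floor with a window. For so few windows, these counts are near that share. The mitochondrial genes with the E-box had log2 ratios of oxamate against control from 0.29 to 0.50, and the cytosolic one had -0.97. Of mitochondrial genes whose window held none, YARS2 (0.52) and LARS2 (0.40) were as high, and FARS2 (-0.67) and PARS2 (-0.63) lower. The part of the E-box was not tested. A pair of genes under the floor also had their highest value in oxamate and were picked after their values were seen. These were SARS2, given above, and AARSD1, an editing factor for alanyl-tRNA, with 28 in oxamate+lactate, 34 in oxamate and 17 in control.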
